A study of Mus musculus with 12 samples.

Results

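The end of mouse chromosome 6 was described gene by gene in C11, a clone of embryonic stem cells whose RNA from this region stood apart from that of the other lines of the same series. Members were the genes on chromosome 6 that start at or beyond 120000000 (mm10) and span under 500000 bases, leaving out Nanog and the names that begin with Nduf, Mrpl, Mrps, Rpl, Rps or Hist. This gave 363 of the 22556 genes in the count tables, between 120093379 and 149563326. The members were chosen by the total and allelic counts of C11, which differed there from those of the other lines, so every difference of C11 given here describes what chose them and carries no test. No DNA was measured, and the number of copies of the region is therefore not known from these values, which are levels of RNA.

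Chromatin-associated RNA was sequenced from iXist-ChrX mESCs, a female line from a 129S x Cast cross in which a TetOn promoter replaces the promoter of Xist on the 129S allele and the activator rtTA is expressed from the TIGRE locus. Cells were grown on mitomycin-treated fibroblasts, and RNA was taken from pre-plated, feeder-free cells without doxycycline (Dox) or after 24 h of Dox. WT has the inducible Xist and no further deletion, with 1 library in each state. XistDelA lacks the A-repeat of the inducible Xist and is represented by C1, 2C2 and C11, each 1 clone with 1 library in each state (the titles of all 3 are alike, but the name under which the counts of C11 were deposited gives its deletion another number, and whether it is the same deletion is not stated). XistDelm6A/T1_11C is a line with a deletion of an m6A region of Xist and has 2 replicates in each state. The methods mention biological replicas, but nothing ties the libraries to separate cultures, and p-values here measure the spread between these samples, which may in part be technical.

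Between 18893447 and 36007145 counts fell on genes in the 12 libraries (median 26552191), and from 44.6% to 47.1% of the counts were assigned to a parental genome. C11 had 26081951 counts without Dox and 27469878 with Dox. Xist served as the check of the labels. Without Dox it stood at 297 RPM in WT, 124 in C1, 126 in 2C2, 158 in C11 and 100.1 and 85.6 in the XistDelm6A/T1_11C replicates. With Dox it stood at 5514 in WT, 1543 in C1, 1267 in 2C2, 1600.0 in C11 and 3140 and 4576 in XistDelm6A/T1_11C, so that each Dox library was above every library without Dox. From 98.2% to 99.9% of the allelic Xist counts fell on genome 2 of the deposited tables, which was therefore taken as 129S, and genome 1 as Castaneus.

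Markers of embryonic stem cells were abundant in all libraries. The 10 genes of that list summed to between 1705 and 2379 CPM (counts scaled by library size), led by Zfp42 or Esrrb, and C11 had 2296 without Dox and 2300.4 with Dox. Sox2 was at 0 in all 12 libraries, but it lies within Sox2ot on the same strand, and reads that overlap 2 genes of a strand were not counted. The list of feeder fibroblast markers summed to between 577 and 855 CPM, of which Fn1 alone gave 563 to 850.2, while Lum was at 0 in 10 libraries and Col1a1 reached at most 2.35 CPM. Markers of early differentiated cells summed to between 15.0 and 35.0 CPM, with Sox1 at 0 in all 12 libraries. Whether reads of Sox1 could be counted is not known from these values. Gata4 led that list in XistDelm6A/T1_11C and reached 15.5 CPM there.

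As background, a cell with an additional copy of a chromosome arm usually makes more RNA from most genes on it, roughly in proportion to the copies, although individual genes can deviate through feedback on their own promoters. In a hybrid cell, reads that cover a strain-specific base show which parental chromosome made them. The end of mouse chromosome 6 carries the cluster of germ line and pluripotency genes around Nanog, enzymes of glycolysis, and the natural killer gene complex with its large families of lectin-like receptors.

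Of the 363 members, 315 were annotated as protein-coding, 15 as lincRNA and 7 as antisense RNA, and 55 had no count in any library. Of these 55, 20 lie wholly within another gene of the same strand, where reads were not counted, so that their 0 is no measure of their RNA. The mean over the 12 libraries was under 1 count for 110 members and under 50 counts for 224. The other 139 members, of which 135 are protein-coding, passed the minimum of 50 counts that was set for a comparison of levels. For alleles, 124 members had a mean of at least 50 counts assigned to a parent. The values below hold for these genes and not for all members.

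Members past the minimum were mostly higher in C11 than in the other 2 XistDelA clones. The difference, on the log2 scale, was taken from the mean of C1 and 2C2 in the same state after scaling by TMM and adding 0.5 to each count. Its median over members was 0.58 without Dox (quartiles 0.48 and 0.74) and 0.59 with Dox (quartiles 0.43 and 0.75), and the difference was above 0 for 133 and 135 of the 139 genes. For comparison, the log2 of 3/2 is 0.58. The same median over 11672 other autosomal genes was 0.0047 and 0.015, with quartiles of -0.15 and 0.16 without Dox. Of those genes, 51.0% without Dox and 53.1% with Dox had a difference above 0. C1 and 2C2 differed from each other on members by a median of -0.015 and -0.040. In bulk RNA, a change in the number of cells with a given level and a change of RNA in each cell cannot be told apart.

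As a whole, chromosome 6 was not shifted more than 4 Mb before the border of the rule. Over the 411 genes there, the median was -0.0035 without Dox and 0.0044 with Dox. The last 4 Mb before the border did differ and are described below. Single windows of 5 Mb with few genes deviated in either direction. The medians were -0.29 and -0.39 over 8 genes from 15 to 20 Mb of the chromosome and -0.20 and -0.22 over 13 genes from 40 to 45 Mb. Upwards deviated a window of 7 genes from 20 to 15 Mb before the border, with a median of 0.54 without Dox and 0.18 with Dox and a 129S share of 47.1% and 46.3% in C11 against 50.9% to 54.6% in the other libraries. There Shq1, an assembly factor of small nucleolar ribonucleoproteins, had a 129S share of 40.5% in C11 and 55.7% as the mean of the others, and Ppp4r2, a regulatory subunit of protein phosphatase 4, had 51.7% and 61.0%, with totals that differed by 0.56 and 0.66 over both states. The other 5 genes there, Chl1, Gxylt2, Rybp, Pdzrn3 and Cntn3, had differences of 0.46, 0.36, 0.15, -0.0031 and -0.051. In C11 and as the mean of the others, the 129S share was 41.9% and 38.6% for Chl1 and 52.3% and 51.2% for Rybp. It was 30.2% and 28.1% for Cntn3 and 41.9% and 47.7% for Pdzrn3, and none was computed for Gxylt2. The end of chromosome 1 above 180 Mb, another segment in which C11 stood apart, went the other way, with -0.88 and -0.91 over 77 genes. There the 129S counts were the ones that were low, with a median allelic difference of -5.35 for 129S against 0.066 for Castaneus without Dox, whereas at the end of chromosome 6 the difference lay with the Castaneus counts. These segments were also chosen with their values known.

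**Figure D1:**
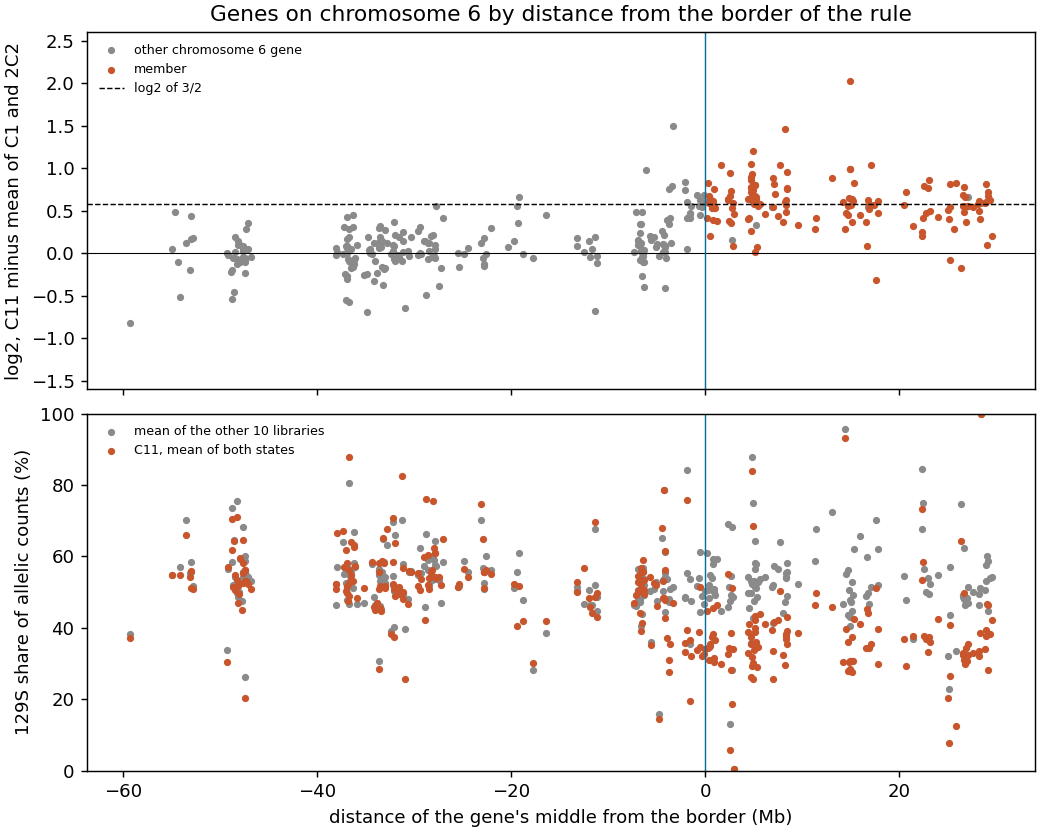
Upper panel, log2 difference of C11 from C1 and 2C2 (mean of both states) for each chromosome 6 gene against the distance of its middle from the border of the rule in Mb, with members in orange, other genes in gray and a dashed line at 0.58. Lower panel, 129S share of the allelic counts in percent for the same genes, in C11 (orange) and as the mean of the other 10 libraries (gray), where orange and gray points separate from about 4 Mb below the border onwards.

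The border of the rule does not coincide with the place where the values change. The 3 genes just outside it, Erc1, Rad52 and Wnk1, had differences of 0.53, 0.71 and 0.59 without Dox and 0.55, 0.67 and 0.63 with Dox. Just inside it, Ninj2, B4galnt3 and Ccdc77 had 0.62, 0.99 and 0.70 without Dox and 0.20, 0.66 and 0.64 with Dox. Genes on either side of 120 Mb thus had similar values, and Wnk1, a kinase that controls ion transport, stood at 1303 and 1265 CPM in C11 against 598 to 963 elsewhere.

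The change lay about 4 Mb before the border. In these 4 Mb the median over 23 genes was 0.53 without Dox and 0.55 with Dox. Of 20 genes of any length there with enough allelic counts, 17 had a 129S share in C11 below that in each of the other 10 libraries in both states, as compared with 0 of 35 genes in the 6 Mb before that. Mbd4, a glycosylase of DNA repair at 115840696, had a 129S share of 58.8% and 64.5% in C11, within the range of 56.7% to 64.9% in the other libraries. Tmcc1, at 116018617, had 37.4% and 36.7% against 51.5% to 57.1%, and Fam21, at 116208032, had 30.5% and 31.3% against 43.5% to 49.7%. The position of 4 Mb and these 3 genes were chosen after the values were seen.

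Along the region itself the shift was even. In the 6 consecutive windows of 5 Mb that begin at the border, the median difference without Dox was 0.62, 0.63, 0.58, 0.47, 0.51 and 0.53. With Dox the same windows had 0.64, 0.60, 0.54, 0.58, 0.50 and 0.60. The window from 110 to 115 Mb stood at 0.017 and 0.084. Abundance made little difference either, since the medians of 4 groups of members from lowest to highest mean count were 0.55, 0.59, 0.63 and 0.57 without Dox and 0.46, 0.63, 0.64 and 0.59 with Dox.

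Genes differed among themselves around this median. The difference, averaged over both states, was under 0.25 for 11 members and over 0.9 for 12, with the rest between. Among other autosomal genes 87.3% were under 0.25, 12.1% between and 0.600% over 0.9, and these limits were set after the values were seen. The differences of a gene without and with Dox were apart by a median of 0.14, whereas C1 and 2C2 were apart by a median of 0.20 without Dox and 0.17 with Dox. C11 was above both C1 and 2C2 in both states for 123 of 139 members. This was not counted over all genes, and as the contrast chose the members, nothing is read from it.

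**Figure D2:**
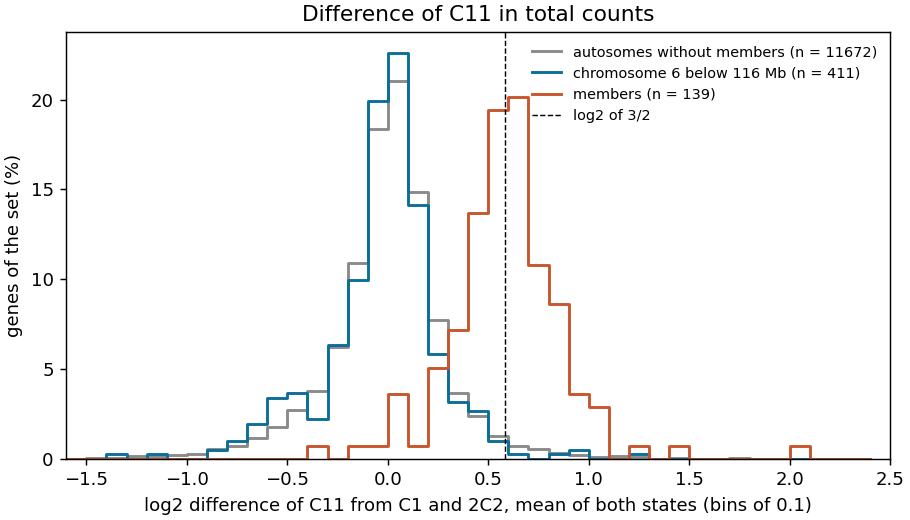
Distribution of the log2 difference of C11 from C1 and 2C2 (mean of both states, bins of 0.1) for 139 members, 411 genes of chromosome 6 more than 4 Mb before the border and 11672 other autosomal genes, as the percent of genes of each set. The member distribution lies around the dashed line at 0.58, with a few genes near 0 and a tail beyond 0.9.

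Against all other libraries, 73 of 139 members (52.5%) were higher in C11 than in each of the other 10 libraries in both states, and 0 were lower than all of them. Over all 12283 genes with a mean of 50 counts, 3.31% were higher in C11 by the same count. As this is the contrast that chose the members, nothing is read from the comparison. Members took 1.21% of all counts in C11 without Dox and 1.20% with Dox, against 0.811% to 0.937% in the other libraries.

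The counts assigned to a parent placed the difference on the Castaneus side. The median difference of the Castaneus counts was 1.08 without Dox and 1.04 with Dox, where a log2 of 1 is a doubling, and the difference was above 0 for 124 of 124 members in both states. Of 9996 other autosomal genes with enough allelic counts, it was above 0 for 5983 without Dox and 5396 with Dox. Median differences of the 129S counts were 0.041 and -0.0087, with 77 and 60 of the 124 members above 0. The sign of the second value depends on the reference, as it was 0.036 against the median of all 5 other libraries. The ratio of Castaneus to 129S counts rose by a median of 1.03 on the log2 scale in each state over 122 members with a 129S share between 10% and 90%, and the change was above 0 for 121 of them without Dox and for 122 with Dox. Among the 9996 other autosomal genes, without a limit on the share, it was above 0 for 5508 and 5601.

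Summed over the 124 members, C11 had 49502 counts from 129S and 90294 from Castaneus without Dox, a 129S share of 35.4% (95% Wilson interval 35.2% to 35.7%). With Dox the share was 35.4% (35.1% to 35.6%). The other 10 libraries had shares from 49.4% in WT with Dox to 52.4% in 2C2 with Dox, with a median of 51.0%. A share of 1 in 3 would be 33.3%, which takes even shares as its start, whereas C1 and 2C2 had 52.1% to 52.4%. These intervals cover counting error alone, as reads without molecular identifiers are not independent molecules. C11 and the other libraries did not overlap, and more than 4 Mb before the border its share was 52.5% in both states against 51.8% to 54.2% elsewhere.

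Per gene, 108 of the 124 members (87.1%) had a 129S share in C11 below that in each of the other 10 libraries in both states. Over 10510 genes with a mean of 50 allelic counts, 5.09% did so, and again nothing is read from this since the allelic counts took part in the choice of the region. Both this and a total level above all other libraries held for 66 members.

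**Figure D3:**
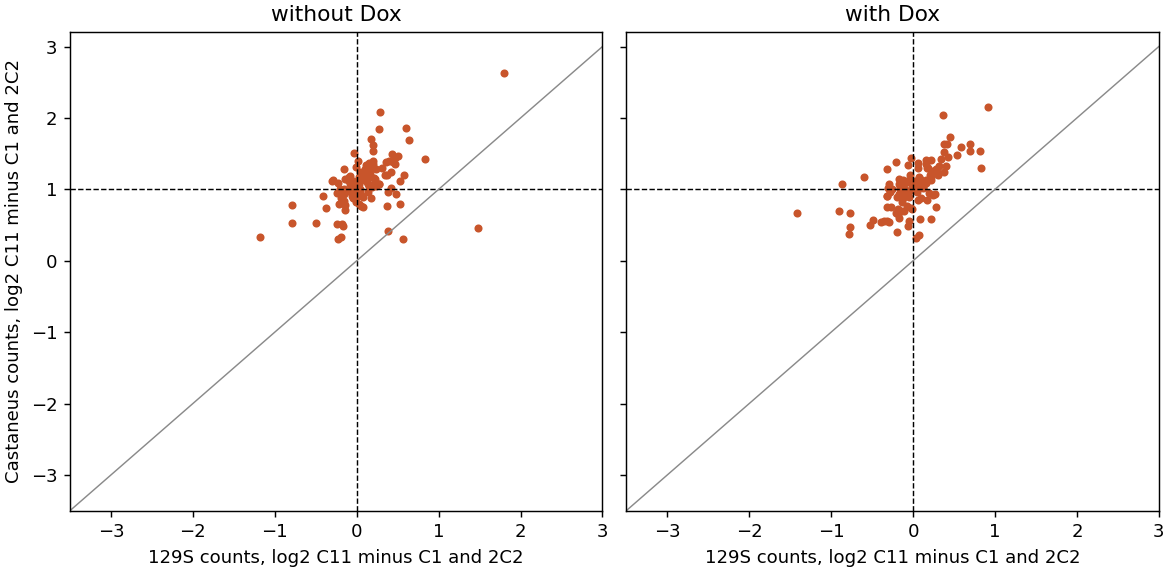
Log2 difference of C11 from C1 and 2C2 in Castaneus counts (vertical axis) against that in 129S counts (horizontal axis), 1 point for each of 124 members, without Dox (left) and with Dox (right), with dashed lines at 0 for 129S and at 1 for Castaneus and a gray line of equal change. Points scatter along a diagonal through the crossing of the dashed lines, and lie above the gray line for 122 members without Dox and 124 with Dox.

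Members with an unusual total had a median shift of the allelic ratio like that of the rest. Among the 11 members under 0.25, 9 had enough allelic counts, and their Castaneus to 129S ratio was shifted by 0.72 to 1.23 with a median of 1.03. Their Castaneus counts were up by a median of 0.53 and their 129S counts were at -0.49. Of the 12 members over 0.9, 10 had enough allelic counts, with ratios shifted by 0.82 to 1.51 and the same median of 1.03, and here both alleles stood higher, at 1.51 for Castaneus and 0.48 for 129S. A 129S share below all other libraries in both states was seen for 8 of the 9 and for 6 of the 10. Whether these deviations belong to C11 as a clone or to its chromosome 6 was not tested.

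Named genes are described next by their roles, with counts of members above all other libraries or with a 129S share below them. Of all members past the minimum, 52.5% and 87.1% did so, against 3.31% and 5.09% of all genes. As the same values chose the region, the counts in a list are no result about its role. The first list is chromatin and transcription. All 18 members of that list had counts and 17 passed the minimum, with a median difference of 0.57 without Dox and 0.50 with Dox. Kdm5a, a demethylase of histone H3 lysine 4, had 307 and 306 CPM in WT without and with Dox, 284 and 276 in C1, 313 and 284 in 2C2, 441 and 432 in C11, and 202 and 185, then 242 and 263, in the XistDelm6A/T1_11C replicates. Both C11 values were above those of the other 10 libraries, with a difference of 0.57 and 0.63 and a 129S share of 36.2% and 33.3% against 48.7% to 54.5%. The list had 11 members above all other libraries in both states, and 14 of 16 with a 129S share below all others.

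Subunits of the Polycomb complexes were among them. Aebp2, a cofactor of Polycomb repressive complex 2, had 253 and 252 CPM in C11 against 93.2 to 192 elsewhere. Phc1, of Polycomb repressive complex 1, had 219 and 247 CPM in WT, 206 and 208 in C1, 167 and 176 in 2C2, 288 and 298 in C11, 262 and 288 in replicate 1 and 161 and 145 in replicate 2 of XistDelm6A/T1_11C. Replicate 1 with Dox thus reached the lower of the 2 C11 values, so that Phc1 did not stand above all libraries although it differed from C1 and 2C2 by 0.63 and 0.64. Its 129S share of 32.2% and 33.1% was below the 41.6% to 50.0% of the others.

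Other chromatin genes lay around the same difference. Cecr2, a bromodomain protein of a chromatin remodelling complex, stood at 318 and 309 CPM in C11 against 196 to 257. Atf7ip, a partner of the histone methyltransferase SETDB1, had differences of 0.36 and 0.37, and the ETS family repressor Etv6 had 0.71 and 0.50. The zinc finger protein gene Zfp384 stood at 92.9 and 93.8 CPM against 44.0 to 72.6, and Ing4, a reader of histone methylation, at 18.7 and 19.2 against 8.14 to 15.8. Transcription factor genes with few counts overlapped the other libraries, such as Sox5 at 9.20 and 9.36 CPM against 5.79 to 12.2 and the circadian factor gene Arntl2 at 6.21 and 6.59 against 3.08 to 8.97.

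Chd4, the ATPase of the NuRD remodelling complex, was the exception of the list. It had 264 and 219 CPM in WT, 255 and 206 in C1, 255 and 220.0 in 2C2, 248 and 222 in C11, 154 and 153 in replicate 1 and 174 and 140.2 in replicate 2 of XistDelm6A/T1_11C. The C11 values lay within the range of the others, with differences of -0.038 and 0.060, and Chd4 had a mean of 5397 counts, so that counting error is small. Its alleles nevertheless differed: the 129S share was 39.5% and 38.3% against 54.9% to 58.8%, with Castaneus at 0.53 and 0.51 and 129S at -0.49 and -0.52.

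Of the neighbours of Nanog in the germ line and pluripotency cluster, 8 of 9 members passed the minimum, with a median of 0.63 in both states. Gdf3, a ligand of the TGF-beta family, had 36.6 and 32.5 CPM in WT, 26.8 and 22.9 in C1, 29.4 and 30.2 in 2C2, 45.0 and 45.1 in C11, and 13.4 to 17.8 in XistDelm6A/T1_11C. C11 was above all of these, by 0.68 and 0.78 from C1 and 2C2. Dppa3, which protects the maternal genome from demethylation in the zygote, differed by 0.25 and 0.46, and its 5.33 and 5.99 CPM overlapped the 3.49 to 8.93 of the other libraries. Slc2a3, which encodes a neuronal type glucose transporter, stood at 419 and 329.5 CPM in C11 against 177 to 339, and Necap1, a protein of clathrin vesicles, at 43.4 and 37.5 against 22.8 to 32.2.

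In the same cluster, Apobec1, a cytidine deaminase that edits RNA, had differences of 0.68 and 0.66, and Mfap5, of the extracellular microfibrils, 1.00 and 0.89 at 6.45 and 7.94 CPM. Foxj2, a forkhead factor, had -0.068 and 0.25. Of 7 members with enough allelic counts, 6 had a 129S share below all other libraries. Nanog itself, left out by the rule, had differences of 0.037 and 0.27 and a 129S share of 17.4% and 19.7% in C11, against 25.4% to 31.9% in the other libraries.

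The list of glycolysis and carbon metabolism, which includes the transporter gene Slc2a3, had medians of 0.75 and 0.72 over the 8 of 9 members past the minimum. Gapdh, which oxidises glyceraldehyde 3-phosphate, had 191 and 166 CPM in WT, 146 and 118 in C1, 153 and 137 in 2C2, 249 and 231 in C11, 146 and 149.8 in replicate 1 and 131 and 92.0 in replicate 2 of XistDelm6A/T1_11C. C11 stood above the rest by 0.74 and 0.86 from C1 and 2C2, with a 129S share of 42.9% and 43.9% against 58.6% to 67.7%. The aminotransferase gene Bcat1 stood at 508 and 417 CPM against 288 to 378, and Lpcat3, a phospholipid acyltransferase, at 42.8 and 38.5 against 21.5 to 36.5.

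The remaining enzymes overlapped the other libraries. Tpi1, the triose phosphate isomerase, differed by 0.87 and 1.00 but had 40.4 and 30.3 CPM against up to 33.8 elsewhere, and Eno2, the neuronal enolase, had 0.95 and 1.15 at 6.53 and 6.93 CPM against 2.74 to 10.1. Ldhb, a lactate dehydrogenase subunit, differed by 0.76 and 0.82, and Dera, the deoxyribose-phosphate aldolase, by 0.61 and 0.63. Gys2, the liver glycogen synthase, had at most 4 counts in a library. Copies of Gapdh and Tpi1 elsewhere in the genome can take or lend reads, and their counts are less certain for that reason.

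Per length, the 5 members with most counts were Gapdh with 34.5 CPM per kb, Slc2a3 with 18.7, Phb2 with 16.3, Ncapd2 with 14.1 and Ybx3 with 12.1. Phb2 encodes a prohibitin of the inner mitochondrial membrane and had a level of 99.0 and 97.1 CPM in C11 against 46.3 to 126. Ybx3, a cold shock domain protein that binds nucleic acids, had 426 and 378 CPM in C11 against 169 to 346, and a difference of 0.35 and 0.48.

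**Figure D4:**
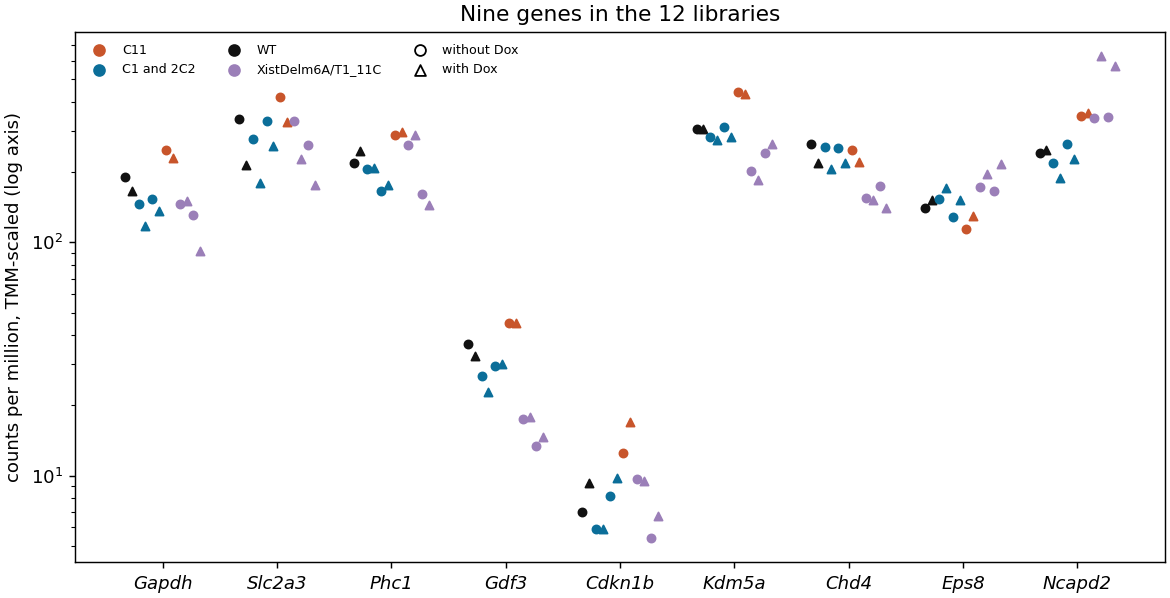
CPM (log axis, TMM-scaled) of 9 members in the 12 libraries, as circles without Dox and triangles with Dox, in black for WT, blue for C1 and 2C2, orange for C11 and purple for XistDelm6A/T1_11C. C11 lies above the other libraries for Gapdh, Gdf3, Cdkn1b and Kdm5a, within them for Chd4, and at their lower end for Eps8, while XistDelm6A/T1_11C with Dox is highest for Ncapd2.

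Growth signalling and cell cycle genes had a median difference of 0.60 without Dox and 0.54 with Dox over 11 of 16 members past the minimum. Cdkn1b, the cell cycle inhibitor p27, had 6.96 and 9.32 CPM in WT, 5.92 and 5.92 in C1, 8.18 and 9.80 in 2C2, 12.5 and 17.0 in C11, 9.65 and 9.47 in replicate 1 and 5.41 and 6.74 in replicate 2 of XistDelm6A/T1_11C. Both C11 values were the highest, with differences of 0.84 and 1.15.

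Regulators on both sides of proliferation stood higher in C11 in this list. The Wnt co-receptor gene Lrp6 had 412 and 474 CPM against 222 to 341, the NDR kinase gene Stk38l 115 and 118 against 58.3 to 75.7, and the ethanolamine kinase gene Etnk1 507 and 501 against 243 to 381. Foxm1, a transcription factor of mitotic genes, had 32.8 and 33.2 CPM against 15.1 to 26.2. Ccnd2, a D-type cyclin, differed by 0.94 without Dox and 0.45 with Dox, at 4.06 and 1.95 CPM, and overlapped the others. Itpr2, an inositol trisphosphate receptor, had -0.0077 and -0.33. In all, 7 members were above all other libraries and 9 of 10 had a 129S share below all of them.

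For DNA repair and mitosis, 6 of 6 members passed the minimum, with medians of 0.55 and 0.57, and 6 of 6 had a 129S share below all other libraries. Ncapd2, a subunit of condensin I, had 242 and 249 CPM in WT, 219.6 and 189.6 in C1, 263 and 228 in 2C2, 348 and 357 in C11, 341 and 628 in replicate 1 and 346 and 571 in replicate 2 of XistDelm6A/T1_11C. C11 was above WT, C1 and 2C2 but below XistDelm6A/T1_11C with Dox. Recql, a DNA helicase, differed by 0.10 and 0.30, and its 129S share was 75.0% and 71.3% against 80.1% to 88.9%.

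In RNA processing and ribosome assembly, 7 of 7 members were above all other libraries in both states, against 52.5% of all members past the minimum. A 129S share below all other libraries was seen for 7 of 7, against 87.1% of members, and the median differences were 0.60 and 0.64. Nop2, an rRNA methyltransferase of the nucleolus, had 92.9 and 83.7 CPM in WT, 73.2 and 61.0 in C1, 83.4 and 71.6 in 2C2, 128 and 122 in C11, and 48.3 to 70.7 in XistDelm6A/T1_11C. Emg1, another methyltransferase of ribosome assembly, had differences of 0.79 and 0.78. Asun, a subunit of the Integrator complex, stood at 228 and 215 CPM against 92.2 to 157, and Wbp11, a splicing factor, at 68.2 and 64.8 against 32.1 to 48.9.

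The receptor families of the region had few counts in all libraries. Of 65 immune receptors and regulators, 42 had a mean under 1 count and 22 had no count at all, and the highest count of the list in a library was 1502. Of the 22 without a count, 17 are Klra genes, of which 16 lie wholly within another gene of the strand and Klra22 shares nearly all its span with Klra15, so these were not measured. The 3 members past the minimum were Vwf, Ptpn6 and Clec4a1, with a median difference of 0.49 and 0.43, and 0 of them stood above all other libraries. Vwf, von Willebrand factor, had 14.3 and 18.8 CPM in C11 and 9.05 to 43.4 elsewhere. Of 33 chemosensory receptors, 30 had a mean under 1 count, 19 had no count and the highest count was 14. A difference of C11 was not detectable for genes with so few counts.

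At the upper end stood 2 long non-coding transcripts and 3 genes for proteins. 1190002F15Rik had 4.89 and 8.39 CPM in WT, 0.994 and 4.78 in C1, 1.61 and 4.12 in 2C2, 6.93 and 13.7 in C11, 8.67 and 11.5 in replicate 1 and 3.48 and 4.09 in replicate 2 of XistDelm6A/T1_11C. Its difference of 2.43 and 1.63 came with low values in C1 and 2C2. In both states WT lay between these clones and C11, and replicate 1 of XistDelm6A/T1_11C lay near C11. It starts at 134929091, right after Cdkn1b, which ends at 134925525. The transcript 9330102E08Rik differed by 1.86 and 1.06 at 3.07 and 2.88 CPM, with up to 4.94 in the other libraries.

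Parathymosin, encoded by Ptms, was highest in C11, at 13.5 and 10.8 CPM against 4.63 to 9.26 elsewhere, a difference of 1.27 and 1.14, and its 129S share was 29.6% and 30.5% against 43.3% to 62.8%. Rerg, a small GTPase related to Ras, had 42.1 and 35.5 CPM against 14.3 to 32.6 and differences of 1.10 and 0.99. Eno2, described above, completed these 5.

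At the lower end, Eps8, an adaptor of receptor signalling that binds actin, had 139.9 and 151 CPM in WT, 153 and 171 in C1, 129 and 151 in 2C2, 114 and 129.6 in C11, 173 and 197 in replicate 1 and 166 and 217 in replicate 2 of XistDelm6A/T1_11C. C11 had the lowest value without Dox, and the difference was -0.30 and -0.31. Its 129S share of 51.9% and 50.7% was below the 66.4% to 73.6% of the others, with Castaneus at 0.53 and 0.37 and 129S at -0.79 and -0.78. The other 4 were Itpr2, Casc1, Chd4 and the tubulin gene Tuba3a, with Casc1 at -0.095 and -0.058 and Tuba3a at -0.14 and 0.29.

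Promoter windows show what sequence some of these genes carry around their start. Windows of 300 bases, from 250 before to 50 after an annotated start, were taken from RefSeq (GRCm38.p6), and 252 of the 363 members matched by symbol, as did 95 of the 139 past the minimum, with 124 windows. Printed are the protein gene with the greatest difference, a Polycomb gene near the median, and the abundant gene with none, a choice made with their values known. Capitals mark GGGCGG or its reverse complement CCGCCC, the GC box, and CCAAT or ATTGG, the CCAAT box, and TATAAA or TTTATA was searched as well. These letters do not overlap in the windows shown.
Ptms, chr6:124917897-124918196, minus strand: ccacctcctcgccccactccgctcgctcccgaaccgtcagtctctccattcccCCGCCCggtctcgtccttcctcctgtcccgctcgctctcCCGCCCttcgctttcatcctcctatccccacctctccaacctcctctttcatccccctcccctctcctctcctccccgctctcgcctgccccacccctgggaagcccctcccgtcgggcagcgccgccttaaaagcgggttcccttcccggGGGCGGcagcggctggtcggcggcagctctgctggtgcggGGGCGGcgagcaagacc
Phc1, chr6:122340178-122340477, minus strand: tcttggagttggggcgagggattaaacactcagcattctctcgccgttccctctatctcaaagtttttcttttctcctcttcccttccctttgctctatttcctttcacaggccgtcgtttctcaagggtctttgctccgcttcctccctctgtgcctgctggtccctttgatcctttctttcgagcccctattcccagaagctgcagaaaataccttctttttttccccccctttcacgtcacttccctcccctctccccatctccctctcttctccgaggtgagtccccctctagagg
Chd4, chr6:125095913-125096212, plus strand: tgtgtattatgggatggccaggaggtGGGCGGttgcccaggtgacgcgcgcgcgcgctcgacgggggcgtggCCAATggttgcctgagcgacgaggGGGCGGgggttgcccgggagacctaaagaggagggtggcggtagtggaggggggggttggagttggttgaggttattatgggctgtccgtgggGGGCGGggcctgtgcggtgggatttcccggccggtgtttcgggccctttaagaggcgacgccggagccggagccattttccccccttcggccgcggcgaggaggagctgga

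The window of Ptms holds 4 GC boxes and 27 CpG dinucleotides, that of Phc1 none of the 3 motifs and 9 CpG, and that of Chd4, the first of its 2 windows, 3 GC boxes, 1 CCAAT box and 29 CpG. Each window spans the start of the gene and reaches into its first transcribed bases. Over the 124 member windows, 58.1% held a GC box, 39.5% a CCAAT box and 6.45% a TATA box, against 35.7%, 37.4% and 13.6% of all 32851 windows. The median number of CpG was 17 in member windows and 7 in all windows, where all windows include genes with no counts in these cells. A match is a description of letters and no evidence that a factor binds there.

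Whether Xist induction changed the RNA of the region was a separate question, since the Dox contrast took no part in the choice of the members. Between the states of a line, members moved little as a group. Their median log2 change with Dox was 0.034 in WT, 0.029 in C1, 0.068 in 2C2, 0.035 in C11 and 0.032 and 0.059 in the XistDelm6A/T1_11C replicates. The medians over all autosomal genes past the minimum, members included, were 0.0048, 0.0030, 0.024, 0.0069, 0.033 and 0.042 in the same order, and the quartiles of the members in C11 were -0.086 and 0.17. The pooled 129S share of the members changed by -0.040 percentage points in C11, against -0.55 in WT, 0.19 in C1, 0.049 in 2C2 and -0.32 and -0.31 in XistDelm6A/T1_11C.

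**Figure D5:**
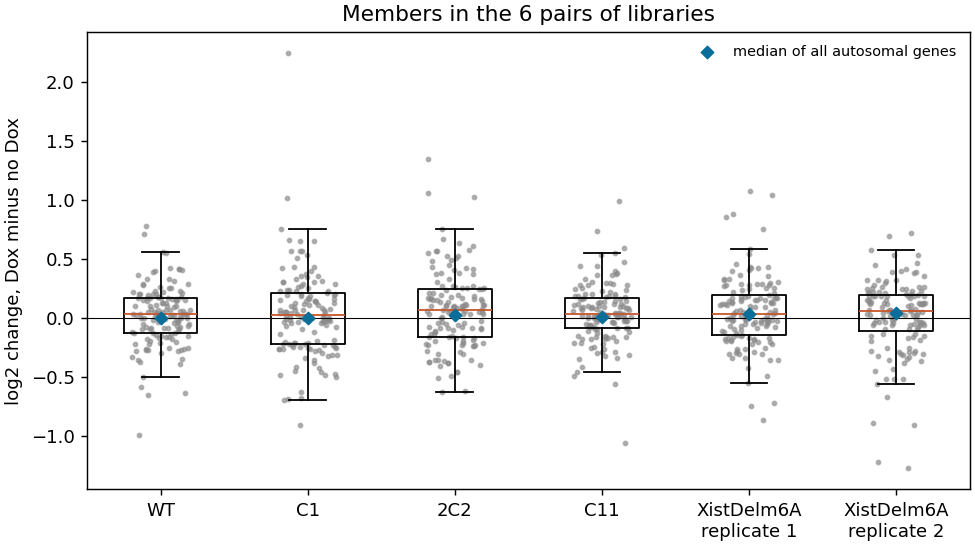
Log2 change from no Dox to Dox of 139 members (gray points) in the 6 pairs of libraries, with boxes from the first to the third quartile, whiskers to the furthest point within 1.5 box lengths and the median in orange, and blue diamonds for the median of all autosomal genes, members included. Boxes cover 0 in all pairs, and their medians lie between 0.029 and 0.068.

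Across the XistDelA clones without pairing, 0 of 185 tested members passed an adjusted p of 0.05 with Dox in edgeR quasi-likelihood tests with Benjamini-Hochberg adjustment, and neither did most other genes, as 0.0202% of 14866 were called. At an unadjusted p under 0.05 there were 8 members and 2162 genes in all. The 3 genes called were Xist, Rapgef4 and Cdh3, of which the latter 2 were chosen here after their values were seen. DESeq2 called 1 member, Gprc5a (log2 change 0.90, adjusted p = 0.0438 from the DESeq2 Wald test), and 362 genes in all. Without pairing, the offset of C11, present in both states, counts as spread between clones for the members. A call is less likely for them, so their few calls say little about Dox. With C11 left out, 24 of 179 members and 1930 of 14922 genes had an unadjusted p under 0.05 by edgeR quasi-likelihood, and 0 members were called.

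Libraries of a clone come from the same cell line, and with the clone as a block 57 of 185 members were called by edgeR quasi-likelihood, 31 higher and 26 lower with Dox, where 29.7% of all 14866 genes were called. The share among members is thus near that of all genes and is no result about the region. An unadjusted p under 0.05 was seen for 79 of the members and for 5838 of all genes. The blocked count depended on C1 and on 2C2, as it was 33 members and 2152 genes without C1, 38 and 2786 without 2C2, and 57 and 4996 without C11, while DESeq2 with the block called 35 and 2626. Leaving out C11 did not lower the count, and whether the same members were called was not compared.

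The greatest blocked change that was in the same direction in all 3 clones was that of 1190002F15Rik, whose CPM are given above. It rose by 1.34 ± 0.16 (SE; adjusted p = 3.1e-07 by edgeR quasi-likelihood with the block, 0.491 without), with 2.24, 1.34 and 0.99 in C1, 2C2 and C11, and its change in WT was 0.78. Gprc5a, an orphan receptor induced by retinoic acid, had 3.26 and 6.61 CPM in C1, 3.58 and 7.50 in 2C2, 5.93 and 9.89 in C11, 4.63 and 7.57 in WT, and 2.75 and 5.83, then 2.91 and 4.74, in XistDelm6A/T1_11C. The value with Dox was the higher in 6 of 6 pairs, and the rise in the clones was 0.92 ± 0.12 (SE; adjusted p = 1.5e-06 by edgeR quasi-likelihood with the block, 0.222 without).

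Those that fell most were Ccnd2, Gsg1 and Bhlhe41. Ccnd2 fell by 0.78 ± 0.19 (SE; adjusted p = 0.0020 by edgeR quasi-likelihood with the block, 0.327 without), with -0.91, -0.24 and -1.05 in C1, 2C2 and C11. Gsg1, a germ cell gene, fell by 0.68 ± 0.24 (SE; adjusted p = 0.0278 by edgeR quasi-likelihood with the block, 0.242 without), at CPM between 0.735 and 1.39 in the clones. Bhlhe41, a repressor of the circadian clock, fell by 0.62 ± 0.23 (SE; adjusted p = 0.0370 by edgeR quasi-likelihood with the block, 0.435 without), with -0.11, -0.40 and -1.12 in C1, 2C2 and C11. Each was in the same direction in all 3 clones, at low counts. DESeq2 with the block gave no adjusted p for these 3 genes after its own filter on counts, and its unadjusted p was 0.0234 for Ccnd2, 0.118 for Gsg1 and 0.165 for Bhlhe41.

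By role, the blocked fit called genes in either direction in most lists, against 29.7% of all genes. In glycolysis and carbon metabolism, 6 of 8 tested members were called, with Slc2a3, Tpi1, Gapdh and Bcat1 lower and Ldhb and Dera higher. Slc2a3 fell from 278 to 180.1 CPM in C1, from 331 to 258 in 2C2 and from 419 to 329.5 in C11, and its blocked change was -0.44 ± 0.051 (SE; adjusted p = 1.9e-07 by edgeR quasi-likelihood, 0.443 without the block). It also had a lower value with Dox in WT, 216 after 339 CPM, and in both XistDelm6A/T1_11C replicates. Ldhb went the other way, with 0.56 ± 0.075 (SE; adjusted p = 1.4e-06 by edgeR quasi-likelihood with the block, 0.425 without).

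In growth signalling and cell cycle, 4 of 14 tested members were higher (Tnfrsf1a, Tead4, Lrp6 and Rassf8) and 2 lower, among them Ccnd2. In chromatin and transcription, 3 of 18 were higher (Atn1, Tead4 and Etv6) and 4 lower (Mlf2, Chd4, Ybx3 and Bhlhe41), with Chd4 at -0.23 ± 0.048 (SE; adjusted p = 0.00053 by edgeR quasi-likelihood with the block, 0.226 without). Here DESeq2 with the block called Tead4, Chd4 and Ybx3, but not Atn1, Etv6 or Mlf2, and gave no adjusted p for Bhlhe41. Of the RNA processing genes, 3 of 7 were lower, namely Nop2, Strap and Asun, and 0 were higher by the edgeR fit with the block. Parp11 and Recql were higher among 6 genes of DNA repair and mitosis, Mfap5 was higher and Slc2a3 lower among 8 tested neighbours of Nanog, and Vwf was higher among 8 tested immune genes. DESeq2 with the block called Parp11, Recql and Slc2a3, but not Mfap5 or Vwf (adjusted p = 0.248 and 0.105 by its Wald test).

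In XistDelm6A/T1_11C, 0 of 187 members were called with Dox in edgeR quasi-likelihood tests, with 2 at an unadjusted p under 0.05, Ncapd2 and Gprc5a. Over all 15140 genes 0% were called, with 173 at an unadjusted p under 0.05, so this fit of 2 against 2 libraries says little about any gene. DESeq2 called 0 members there and 3 genes in all. Ncapd2 had a log2 change of 0.77 ± 0.22 (SE), higher with Dox in 2 of 2 replicates, and did not pass the adjustment in the edgeR fit without pairing. Paired by replicate number, that fit called 237 genes and 3 members, among them Ncapd2 (adjusted p = 0.0153 by edgeR quasi-likelihood with the block). The labels do not explain this pairing. Whether the Dox response differed between XistDelA and XistDelm6A/T1_11C was tested as an interaction in edgeR, which called 0 of 15745 genes without blocks, with 233 at an unadjusted p under 0.05, and 0 of 202 members, with 3 under it. Without blocks, the offset of C11 adds to the spread of the members in this test as well. With blocks for clone and replicate number the interaction test called 117 genes and 1 member, Ncapd2, which is described in the closing section with the limit of that pairing. WT has 1 library in each state and entered no test.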

How the data were processed

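The authors counted read pairs over gene spans of mm10 with featureCounts (version 1.5.2), reversely stranded and without counting reads that overlap 2 genes of a strand, and deposited raw counts for all reads and for reads assigned to each parental genome. The submitters' processing notes also name STAR (version 2.4.2a) and Bowtie2 (version 2.3.2). Levels were computed as CPM on TMM-effective library sizes, differences of C11 after adding 0.5. Every gene was tested by quasi-likelihood in edgeR (version 4.0.16) with filterByExpr (minimum count 10), Benjamini-Hochberg adjustment and a threshold of 0.05, in R 4.3.3. DESeq2 (version 1.42.0) was an alternative. Other values were computed in Python 3.11.15 with pandas 2.3.3 and scipy 1.17.1. Scripts were tested on simulated data. Gene types came from GENCODE by symbol.

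Members and lists were chosen with earlier results of these data known. Named genes were the list members, the 5 highest and 5 lowest differences of C11, up to 5 called members per line with the largest change with Dox in the same direction in every pair, 3 genes on each side of the border and the 5 members with most counts per length. The limits of 0.25 and 0.9, the position 4 Mb before the border, the genes around it and the promoters shown were chosen after their values were seen.

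Clones pair the XistDelA libraries as cell lines. Deviations from the group means correlated between the 2 libraries of a clone at 0.82 in C1, 0.61 in 2C2 and 0.72 in C11, and between clones at -0.10 or below. Deviations from a mean cancel within each state, so the values between clones are pushed down by construction. Alternatives covered scaling, filters, pseudocount, reference, border, test, pairing and left-out libraries.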

Additional observations from a re-analysis of the deposited data

Results flagged for a closer look

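Ncapd2, a subunit of condensin I, responded to Dox differently in XistDelA and in XistDelm6A/T1_11C when libraries of a clone or replicate number were paired. The log2 change in XistDelA minus that in XistDelm6A/T1_11C was -0.91 (adjusted p = 0.0045 by edgeR quasi-likelihood with blocks), against -0.88 with an adjusted p of 1.00 by the same test without blocks. It was the 1 member among 117 genes that passed this test, of 15745. Changes with Dox were -0.21 in C1, -0.21 in 2C2, 0.038 in C11 and 0.035 in WT, against 0.88 and 0.72 in the XistDelm6A/T1_11C replicates. As the replicate numbers of XistDelm6A/T1_11C may be no more than numbers, the blocked value rests on a pairing that the labels do not explain.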

How the results depend on the processing

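In XistDelA clones the edgeR fit without pairing called 3 genes and 0 members with Dox, DESeq2 362 and 1, and leaving out each clone gave 0 to 2 genes. With the replicate block there were 4410 genes and 57 members. Without C1, 2C2 or C11, the replicate block gave 2152, 2786 or 4996 genes and 33, 38 or 57 members, and DESeq2 with the replicate block 2626 and 35. In XistDelm6A/T1_11C, where 0 genes were called, there were 2 without a count filter, 3 by DESeq2, 2 in a fit of all 12 libraries and 1 to 1 when each replicate was left out, in a fit where the other lines supply the spread. Its 2 pairs share only a number (libraries of the same number correlated at 0.771 and others at -0.771, which mirror each other by construction with 2 replicates), and the replicate block gave 237 genes and 3 members there (Ncapd2, Eno2 and Tpi1), and 89 and 2 by DESeq2. Ncapd2 was called by both, with adjusted p = 0.0153 by edgeR quasi-likelihood with the replicate block and 0.000343 by the DESeq2 Wald test with it.

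The median difference of C11 without Dox (0.5826) was 0.5688 with DESeq2 size factors, 0.5962 at a mean of 10 counts, 0.5532 against all 5 other libraries, 0.5625 with the border 5 Mb further in, 0.5976 without the 10 most abundant members, and 0.6057 to 0.6244 when C1 or 2C2 was left out. With Dox (0.5878) it was 0.5588 at a mean of 10 counts, 0.5392 against all 5 libraries and 0.5817 to 0.5973 with a clone left out. For 129S counts without Dox (0.0414), leaving out a clone gave 0.0428 to 0.0873. With Dox the 129S median of -0.0087 was -0.0325 with total-count scaling, -0.0289 at a mean of 10 and -0.0191 at a mean of 200 counts, -0.0178 with the border 5 Mb further in, and -0.0193 to 0.015 with a clone left out. Its sign changed against all 5 libraries (0.0364) and without C1 (0.015). How such values near 0 are labelled was decided after they were seen.

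For Castaneus counts the medians of 1.08 and 1.04 were 1.0275 and 0.9829 against all 5 libraries and 1.0457 to 1.0608 and 1.0212 to 1.0382 with a clone left out. With Dox, total-count scaling gave 1.0121 and a mean of 200 counts 1.0688. The 129S share without and with Dox was 35.9553% and 35.9488% as the median over genes, 34.9348% and 34.9989% with the border 5 Mb further in, and 35.754% and 35.6922% without the 10 members with most allelic counts. The number of members above all other libraries (73) ranged from 65 to 80, and that with a 129S share below all others (108) was 114 at a mean of 10 allelic counts. DESeq2 with pairing, the paired fits with a clone left out and the restriction to a 129S share from 10% to 90% were added after the data were seen. The cause of these shifts was not tested.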

Other observations

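On the middle of chromosome 6, outside the region described, WT had a higher 129S share than the other lines. From 45 to 50 Mb it was 61.0% without Dox and 60.3% with Dox in WT, against 53.2% to 54.5% in the other 10 libraries, and from 70 to 75 Mb it was 59.0% and 58.4% against 51.2% to 52.0%. These windows were noticed after the values were seen, and no test was made.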
